A study of Mus musculus with 6 samples.

Results

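A set of 10 macrophage genes was followed in mouse hearts that carry a fatty acid synthase (FASN) transgene. They were Ms4a6d together with Ms4a7, Cd68, Cd163, Mrc1, C1qa, C1qb, C1qc, Csf1r and Adgre1. Every probe set annotated to exactly 1 of these symbols was taken, which gave 17 of 45037 non-control probe sets and 10 of 18193 named genes. The genes were chosen by their measured differences between these same arrays, so their values are given below as a description and without p-values.

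The samples were 6 Affymetrix expression arrays of heart tissue from male C57BL/6J mice, 2 arrays in each of 3 groups. The first group was a line with a high cardiac level of transgenic FASN, the second a line with a low level, and the third B6 mice of matched age, whose age in weeks or months is not stated. In both lines FASN, the enzyme that makes palmitate, was under the alpha-MHC promoter of heart muscle cells, and no label names the species the transgene came from. Each level was 1 line, so level and line cannot be told apart. Whether the arrays of 1 group stand for different animals is not stated, so p-values measure only the spread between arrays, which may be technical. The tissue field reads transgenic heart for all 6 samples, controls included, and the groups were taken from the titles.

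Signals for mouse Fasn were 2268 and 2104 in the high-FASN line, 462 and 481 in the low-FASN line, and 213 and 187 in B6 control hearts, an order that fits the titles. Within groups, log2 signals of array pairs correlated at 0.986 to 0.99 over probe sets, and between groups at 0.968 to 0.976. The deposited values are signals on a linear scale, with a mean of 300.002 on every array after the highest and lowest 2% were trimmed, and median signals were 48.3 to 51.9. The 22519 probe sets whose 6-array mean reached 49.01, the median over the table without controls, were tested. Differences are given in log2(signal + 16) with the standard error (SE) of a limma fit over all 6 arrays, and a difference was called at a Benjamini-Hochberg adjusted p below 0.05. Arrays carry no counts, so the number of arrays limits the precision.

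Macrophages are phagocytes that reside in the heart between the muscle cells, clear debris and dying cells, and are maintained through the receptor Csf1r. Resident cells of this kind carry scavenger and lectin receptors such as Cd163 and Mrc1 and secrete C1q, the recognition molecule of the classical complement pathway. The Ms4a genes encode small membrane proteins that cross the membrane several times, and several of them, Ms4a6d and Ms4a7 included, are expressed in macrophages. In whole heart tissue, fewer macrophages and less RNA per macrophage cannot be told apart.

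The promoters of genes the results turn on are shown first, each from 250 bases before to 50 after the annotated start in RefSeq, build GRCm38.p6, 5′ to 3′ in the direction of the gene. Promoters of 6 of the 10 genes were searched, 7 promoters in all. Ms4a6d, C1qa and Adgre1 had no entry, and Csf1r was left out of the search. In the first 3 sequences capitals mark the letters GAGGAA or, on the other strand, TTCCTC, the core of the box read by PU.1, a transcription factor of the myeloid lineage.
Ms4a7, chr19:11336097-11336396, minus strand: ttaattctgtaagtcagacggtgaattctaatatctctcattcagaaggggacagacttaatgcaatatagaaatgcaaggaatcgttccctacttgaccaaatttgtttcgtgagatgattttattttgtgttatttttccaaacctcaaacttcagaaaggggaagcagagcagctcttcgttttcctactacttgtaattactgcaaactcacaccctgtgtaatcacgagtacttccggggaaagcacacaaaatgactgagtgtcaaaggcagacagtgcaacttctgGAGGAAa
C1qb, chr4:136886151-136886450, minus strand: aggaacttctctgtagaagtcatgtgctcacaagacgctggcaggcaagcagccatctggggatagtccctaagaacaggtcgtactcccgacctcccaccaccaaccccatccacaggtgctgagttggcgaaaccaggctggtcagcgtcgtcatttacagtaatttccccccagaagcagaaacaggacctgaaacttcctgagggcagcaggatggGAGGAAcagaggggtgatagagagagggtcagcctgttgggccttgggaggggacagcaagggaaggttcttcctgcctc
C1qc, chr4:136892865-136893164, minus strand: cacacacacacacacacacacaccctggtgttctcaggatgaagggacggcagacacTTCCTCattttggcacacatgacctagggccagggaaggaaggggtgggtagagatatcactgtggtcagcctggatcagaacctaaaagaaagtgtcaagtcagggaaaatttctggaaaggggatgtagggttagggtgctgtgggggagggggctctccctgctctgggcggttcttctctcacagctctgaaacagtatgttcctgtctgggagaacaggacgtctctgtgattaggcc
Ms4a7 had 2 entries, and the one not printed lacked the PU box letters, as did that of Cd163. The letters were found in the other 5 of the 7 promoters, those of Cd68, Mrc1, C1qb, C1qc and the Ms4a7 promoter printed, and in 28.3% of all 32851 mouse promoters in that table. The letters TATAAA, searched on both strands, were found in 0 of the 7 and in 13.6% of all. Matches to one motif cannot overlap matches to the other, and a match shows only that these letters are present. The next pair shows neighbours of Ms4a6d in the Ms4a cluster on chromosome 19, whose signals are given further on. Here capitals mark the longest run the 2 promoters share.
Ms4a6b, chr19:11518309-11518608, plus strand: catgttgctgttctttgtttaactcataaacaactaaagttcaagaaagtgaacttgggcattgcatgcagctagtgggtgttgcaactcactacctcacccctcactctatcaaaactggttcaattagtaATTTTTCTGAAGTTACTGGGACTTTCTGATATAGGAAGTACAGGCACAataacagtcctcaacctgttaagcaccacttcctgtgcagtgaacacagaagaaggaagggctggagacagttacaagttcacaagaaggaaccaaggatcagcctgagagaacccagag
Ms4a6c, chr19:11469118-11469417, plus strand: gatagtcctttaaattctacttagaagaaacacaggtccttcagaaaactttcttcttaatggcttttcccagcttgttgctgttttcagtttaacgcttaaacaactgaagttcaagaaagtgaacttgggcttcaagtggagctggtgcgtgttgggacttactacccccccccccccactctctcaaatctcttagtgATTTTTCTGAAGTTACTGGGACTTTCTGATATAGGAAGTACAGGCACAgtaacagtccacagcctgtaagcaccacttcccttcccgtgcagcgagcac
That run is 48 bases long, and 193 of 234 aligned positions were identical (82.5%). The Ms4a6 genes are close copies, and whether a probe set of one also reads transcripts of another was not tested.

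Ms4a6d, a membrane protein of macrophages, was far lower in both transgenic lines. Its probe set 1419598_at read 118 and 121 in the high-FASN line, 143 and 152 in the low-FASN line, and 890.3 and 823 in B6 control hearts. Its probe set 1419599_s_at read 119.8 and 119.3 in the high-FASN line, 172 and 177 in the low-FASN line, and 917 and 836 in B6 control hearts. On both, every transgenic array lay below every control array, and the high-FASN arrays lay below the low-FASN arrays. The means of 1419599_s_at were 119.6 ± 0.308 in the high-FASN line, 174.6 ± 3.65 in the low-FASN line and 877 ± 57.2 in B6 control hearts (SD, n = 2 each). On the log2 scale the high-FASN line stood at -2.69 and -2.72 relative to B6 control on the 2 probe sets, and the low-FASN line at -2.42 and -2.23 (SE 0.12 and 0.116). As ratios of signal + 16, the scale of the fit, Ms4a6d was 6.44-fold and 6.58-fold lower in the high-FASN line and 5.34-fold and 4.68-fold lower in the low-FASN line. Among 19971 tested probe sets with 1 gene symbol, the 2 Ms4a6d probe sets held ranks 1 and 2 from the lowest difference of the high-FASN line from B6 control, and ranks 4 and 12 in the low-FASN line. The lines themselves differed by -0.27 and -0.49, high-FASN minus low-FASN. A further Ms4a6d probe set, 1449539_at, never exceeded 20.9 on any array and was not tested.

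Ms4a7 is a macrophage gene of the same family. It read 193 and 211 in the high-FASN line, 286 and 252 in the low-FASN line, and 321 and 306 in B6 control hearts. The 3 groups did not overlap. The differences were -0.60 for the high-FASN line and -0.21 for the low-FASN line relative to B6 control (SE 0.125). A second Ms4a7 probe set stayed at or below 14.2 and was not tested. The lowest signal of the 15 tested probe sets on any array was 118, so all of them passed the minimum in every group and each of the 10 macrophage markers was measured above it on all 6 arrays.

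**Figure D1:**
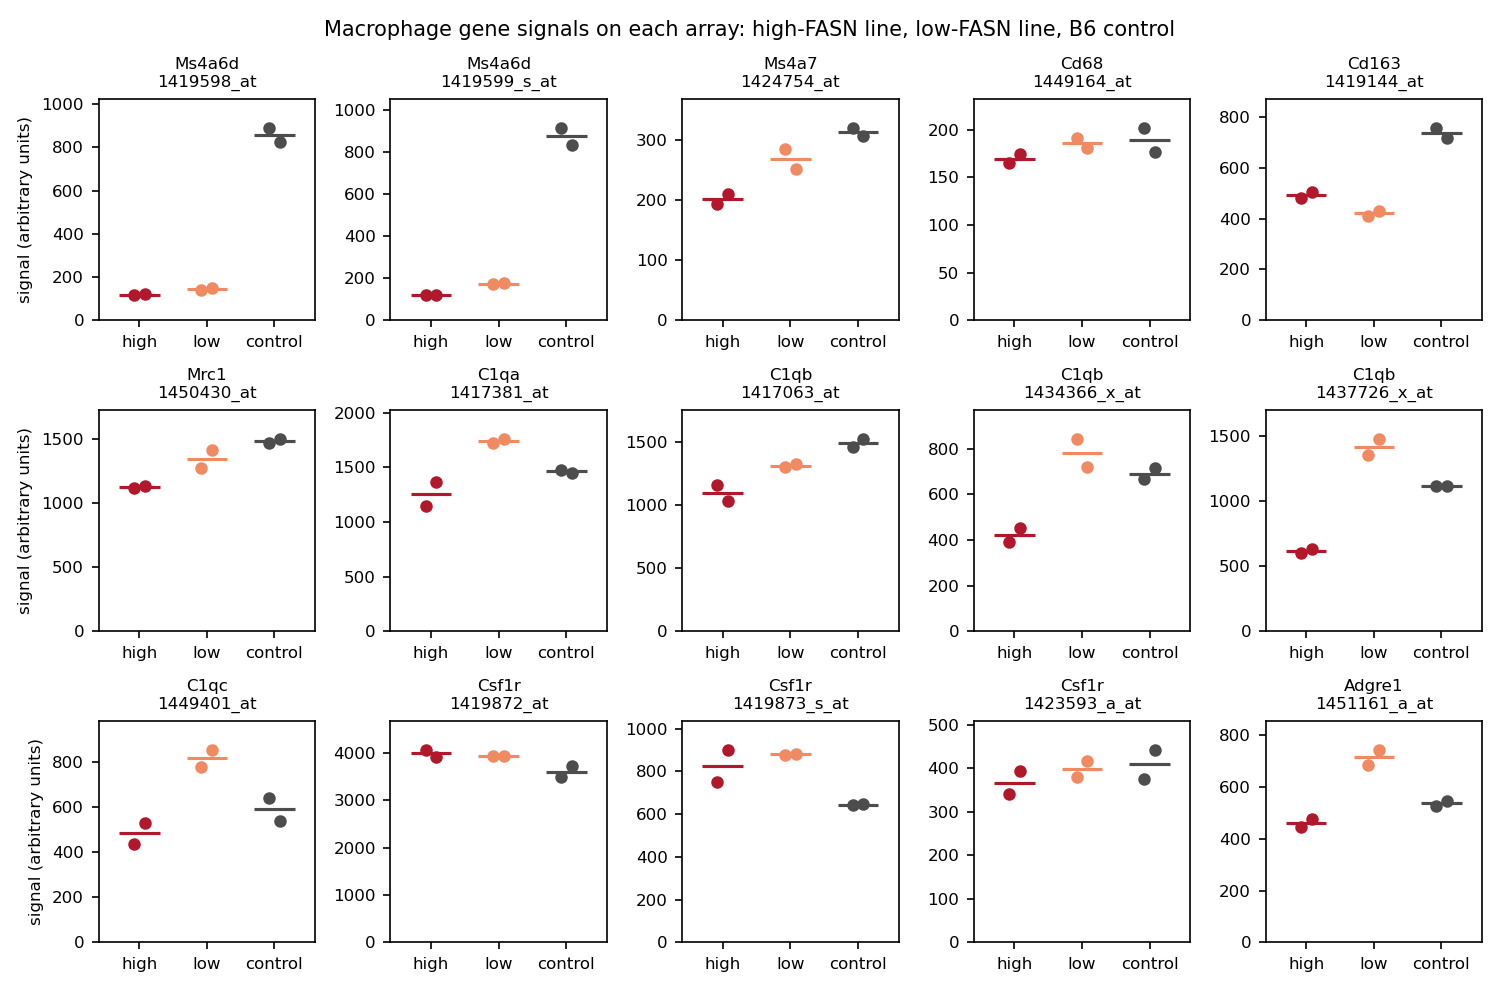
Signal (arbitrary units, linear axis from 0) of the 15 tested probe sets of the 10 macrophage genes on each array, by group, with the group mean as a line. Both Ms4a6d probe sets lie at 118 to 177 on the transgenic arrays and at 823 to 917 on the control arrays, while several C1q probe sets and Adgre1 are highest in the low-FASN line.

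The scavenger receptor Cd163 and the lectin receptor Mrc1 were lower in the high-FASN line too. Cd163, the receptor that takes up haemoglobin bound to haptoglobin, read 482 and 505 in the high-FASN line, 409 and 431 in the low-FASN line, and 756 and 715 in B6 control hearts. Cd163 was the only one of the 10 genes with its lowest mean in the low-FASN line, with differences of -0.56 in the high-FASN line and -0.79 in the low-FASN line (SE 0.0869). Mrc1, the mannose receptor, read 1118 and 1133 in the high-FASN line, 1274 and 1412 in the low-FASN line, and 1466 and 1501 in B6 control hearts. Its groups did not overlap, and its differences were -0.39 and -0.14 for the high-FASN and low-FASN lines (SE 0.0702). Cd68, a glycoprotein of macrophage lysosomes, read 164 and 175 in the high-FASN line, 191 and 181 in the low-FASN line, and 202 and 176 in B6 control hearts. Its differences of -0.14 in the high-FASN line and -0.02 in the low-FASN line were no larger than their SE of 0.143, and the low-FASN arrays lay between the 2 control arrays.

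The 3 chains of C1q were ordered differently from Ms4a6d: with 1 exception each probe set was highest in the low-FASN line and lowest in the high-FASN line. C1qa read 1149.5 and 1367 in the high-FASN line, 1726 and 1762 in the low-FASN line, and 1477 and 1449.5 in B6 control hearts. C1qc read 437 and 527 in the high-FASN line, 775 and 852 in the low-FASN line, and 637 and 539 in B6 control hearts. For both, the high-FASN arrays lay below and the low-FASN arrays above every control array. C1qa differed by -0.22 in the high-FASN line and 0.25 in the low-FASN line relative to B6 control (SE 0.0826), and C1qc by -0.28 in the high-FASN line and 0.46 in the low-FASN line (SE 0.117). C1qb had 3 probe sets that disagreed about the low-FASN line. Its probe set 1437726_x_at read 601 and 632 in the high-FASN line, 1358 and 1481 in the low-FASN line, and 1121 and 1116 in B6 control hearts. The second, 1434366_x_at, read 392 and 453 in the high-FASN line, 844 and 720.3 in the low-FASN line, and 667 and 716 in B6 control hearts. The third, 1417063_at, read 1157 and 1036 in the high-FASN line, 1299 and 1329 in the low-FASN line, and 1464 and 1526 in B6 control hearts. All 3 were lower in the high-FASN line than in B6 control, by -0.84, -0.69 and -0.44. In the low-FASN line the first 2 stood at 0.34 and 0.17, while 1417063_at stood at -0.18. Probe sets ending in _x_at can share sequence with other transcripts, and that was not tested here. C1qb and C1qc lie on the same strand of chromosome 4, and their promoters printed above each hold 1 PU box.

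Adgre1, the gene of the macrophage surface marker F4/80, followed the order of C1qa and C1qc. It read 445 and 477 in the high-FASN line, 687 and 744 in the low-FASN line, and 528 and 547 in B6 control hearts. The groups did not overlap, with differences of -0.21 and 0.40 for the high-FASN and low-FASN lines relative to B6 control (SE 0.0882). Among all tested probe sets, 3.56% had both high-FASN arrays below and both low-FASN arrays above the control arrays.

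Csf1r, the receptor for the macrophage growth factors Csf1 and Il34, was the only one of the 10 genes with a probe set higher in both lines. Its probe set 1419873_s_at read 753 and 901 in the high-FASN line, 879 and 883 in the low-FASN line, and 643 and 646 in B6 control hearts. The differences were 0.35 for the high-FASN line and 0.44 for the low-FASN line (SE 0.0927), and all transgenic arrays lay above the controls. The call of this probe set in the high-FASN line was lost under 10 of 16 alternatives, the omission of high-FASN replicate 2, of either low-FASN replicate or of either control replicate among them. The probe set 1419872_at read 4070.1 and 3915 in the high-FASN line, 3939 and 3944 in the low-FASN line, and 3491 and 3719 in B6 control hearts, with differences of 0.15 for the high-FASN line and 0.13 for the low-FASN line. The probe set 1423593_a_at read 340.3 and 393 in the high-FASN line, 379 and 417 in the low-FASN line, and 376 and 442 in B6 control hearts, and its 3 groups overlapped. Its differences were -0.15 for the high-FASN line and -0.04 for the low-FASN line (SE 0.121). The 3 Csf1r probe sets thus give no single direction.

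**Figure D2:**
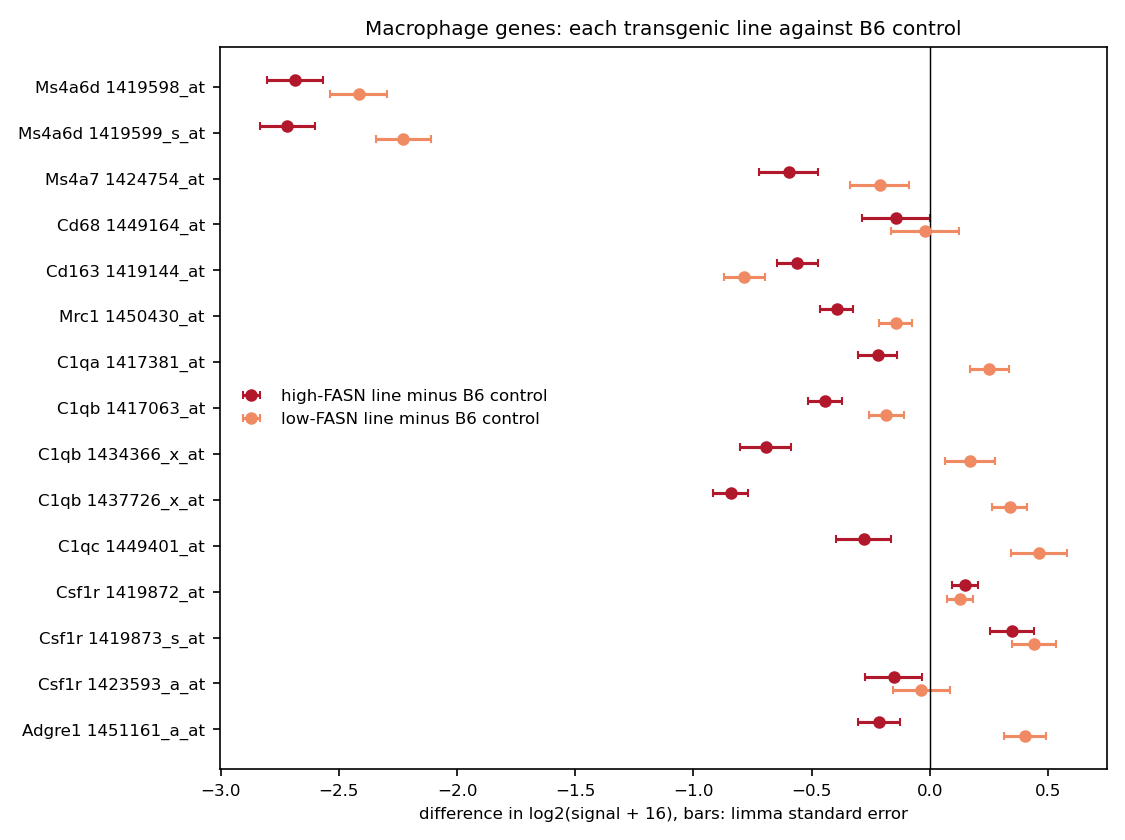
Difference of each line from B6 control in log2(signal + 16) for the 15 tested probe sets, with limma standard errors as bars. Ms4a6d lies at -2.72 to -2.23 in both lines, while C1qa, C1qc, Adgre1 and the _x_at probe sets of C1qb lie below 0 in the high-FASN line and above 0 in the low-FASN line.

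In the high-FASN line against B6 control, 8 of the 15 probe sets, from 5 genes, were called lower and 1, the Csf1r probe set whose call was lost under 10 of 16 alternatives, higher, beside 6.2% lower and 8.22% higher over the whole table. In the low-FASN line against B6 control, 3 were called lower and 4 higher, beside 10.8% and 13.6%. The low-FASN count of 7 fell without low-FASN replicate 2, and so did the calls over the whole table. Between the lines, 8 probe sets from 6 genes were called, all lower in the high-FASN line, beside 8.85% lower and 9.64% higher. The count of 8 fell when either low-FASN replicate was left out, again with fewer calls over the whole table. These comparisons share arrays and had served to choose the genes, so nothing is read from the counts. The median difference over the 15 was -0.39 in the high-FASN line and -0.02 in the low-FASN line, against medians of 0.04 and 0.02 over all tested probe sets. Without a call rule, 12 of the 15 had both high-FASN arrays below both control arrays and 2 had them above, beside 23.9% and 32.3% of all tested probe sets. For the low-FASN line against B6 control the numbers were 6 below and 7 above, beside 30.3% and 34.8%. For the high-FASN against the low-FASN line they were 11 below and 1 above, beside 29.2% and 30.1%. By order of means, 7 probe sets ran from control down through the low-FASN to the high-FASN line, an order held by 13% of all tested probe sets. The order with the low-FASN line on top and the high-FASN line at the bottom was held by 5, against 14.3% of all.

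The other Ms4a genes give the surroundings of Ms4a6d. RefSeq lists 21 Ms4a genes in the chromosome 19 cluster, and the neighbours on one side of Ms4a6d run Ms4a4d, Ms4a6b, Ms4a6c. Ms4a6b, a family member known from lymphoid and myeloid cells, fell in both lines: probe set 1418826_at read 375 and 357 in the high-FASN line, 474 and 467 in the low-FASN line, and 1074 and 953 in B6 control hearts. The differences were -1.43 in the high-FASN line (limma adjusted p = 1.68e-05) and -1.08 in the low-FASN line (adjusted p = 6.14e-05). A second Ms4a6b probe set, 1439956_at, stood at -0.99 (adjusted p = 0.0167) in the high-FASN line and at -0.51 in the low-FASN line (adjusted p = 0.127). Ms4a6c read 313 and 263 in the high-FASN line, 353 and 310.4 in the low-FASN line, and 563 and 474 in B6 control hearts. On the log2 scale it fell by 0.81 in the high-FASN line (limma adjusted p = 0.00361) and fell by 0.62 in the low-FASN line (adjusted p = 0.00794). All transgenic arrays of both genes lay below the controls on 1418826_at and on the Ms4a6c probe set.

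Ms4a4d lies between Ms4a6b and Ms4a6d on the chromosome and was not called against B6 control in either line. It read 1654 and 1789 in the high-FASN line, 1481 and 1471 in the low-FASN line, and 1673 and 1679 in B6 control hearts, at 0.04 for the high-FASN line (limma adjusted p = 0.742) and -0.18 for the low-FASN line (adjusted p = 0.0657). Ms4a1, which encodes the B cell antigen CD20, read 68.1 and 73.6 in the high-FASN line, 94.9 and 105 in the low-FASN line, and 24.1 and 30.3 in B6 control hearts. The control mean of 27.2 lay below the minimum of 49.01, so Ms4a1 passed it through the transgenic arrays and no test is given. Ms4a15 stood at 0.38 in the high-FASN line and 0.40 in the low-FASN line, Ms4a4b stood at -0.34 in the high-FASN line and 0.06 in the low-FASN line, and neither gene was called. The 2 printed promoters of Ms4a6b and Ms4a6c hold no PU box letters.

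**Figure D3:**
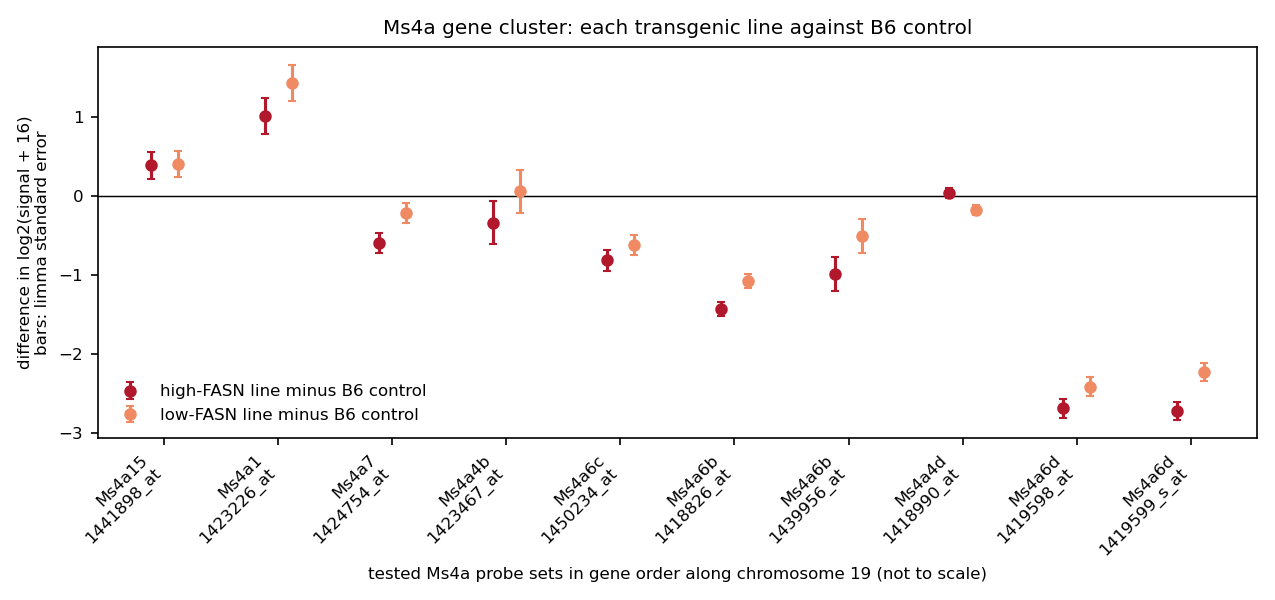
Difference of each line from B6 control in log2(signal + 16), with limma standard errors as bars, for all tested Ms4a probe sets in gene order along chromosome 19 (order only, not distance). Ms4a6d is lowest at -2.72 to -2.23, Ms4a6b and Ms4a6c lie between -1.43 and -0.51, Ms4a4d lies at 0.04 and -0.18 in the high-FASN and low-FASN lines, and Ms4a1 lies above 0.

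The probe sets whose pattern over the 6 arrays was most like Ms4a6d were found by the root mean square distance from 1419599_s_at in centred log2(signal + 16). The other Ms4a6d probe set lay at 0.0992. Next came Ccl9, a chemokine of myeloid cells, at 0.119 and 0.187 on 2 probe sets, Mt2, a metal-binding metallothionein, at 0.152, Clec4d, a C-type lectin receptor of myeloid cells, at 0.207, and Lcn2, the siderophore-binding lipocalin 2, at 0.23. The Clec4d means of 29.2 and 40.2 in the high-FASN and low-FASN lines lay below the minimum of 49.01. So did the Lcn2 mean of 44.3 in the high-FASN line, and both genes passed the minimum through the control arrays. The remaining macrophage genes were farther, from 0.897 for Cd163 to 1.36 for Csf1r. This distance depends on the size of a change as well as its shape. The SD over the 6 arrays was 1.3 for 1419599_s_at and 0.0793 to 0.546 for the remaining genes. Those genes therefore had to lie far from it whatever their shape, and their likeness in shape was not tested. Mt2 read 1323 and 1344 in the high-FASN line, 1595 and 1441 in the low-FASN line, and 7678 and 8214 in B6 control hearts. Since these were picked for their likeness, no test is given for the likeness.

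Of 59 other resident-macrophage and pan-myeloid genes listed, 48 were tested, each by its brightest tested probe set. The shares given beside their counts are over all tested probe sets, dim and bright, and are not matched for signal. The lists were also chosen with earlier results of these data known, so the counts are a description. In the high-FASN line 12 were lower and 5 higher than B6 control, 35.4% called beside 14.4% of all tested probe sets. In the low-FASN line 6 were lower and 11 higher, 35.4% beside 24.4%. Between the lines, 12 were lower and 1 higher in the high-FASN line, 27.1% beside 18.5%. The first count of 17 fell when either control replicate was left out. The count of 17 in the low-FASN line fell when either low-FASN or either control replicate was left out. The third count of 13 fell when either low-FASN replicate was left out. In each of these settings the calls over the whole table fell too, so the drops are not particular to these genes. The medians over the 48 genes were 0.05 and 0.13 in the high-FASN and low-FASN lines against B6 control, beside 0.04 and 0.02 for all tested probe sets. Of the 24 genes called against B6 control in either line, 2 had a group mean below the minimum.

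Among resident-macrophage genes, 5 of 22 fell and 2 rose in the high-FASN line, and 3 fell and 5 rose in the low-FASN line. Over all tested probe sets 6.2% were lower and 8.22% higher in the high-FASN line, and 10.8% and 13.6% in the low-FASN line. Between the lines the shares were 8.85% lower and 9.64% higher. These shares also apply to the lists below, and no count near them is read as a result. Between the lines, 3 were lower and 1 higher in the high-FASN line. Lyve1, a hyaluronan receptor of vessel-associated macrophages and lymphatic endothelium, read 1083 and 1021 in the high-FASN line, 1504 and 1450.1 in the low-FASN line, and 2574 and 2516 in B6 control hearts. On the log2 scale it fell by 1.26 in the high-FASN line (limma adjusted p = 2.88e-06) and fell by 0.78 in the low-FASN line (adjusted p = 4.73e-05). Ccl8, a monocyte-attracting chemokine, read 129 and 168 in the high-FASN line, 127 and 139 in the low-FASN line, and 418 and 399.7 in B6 control hearts. Ccl8 fell by 1.38 in the high-FASN line (limma adjusted p = 0.000529) and fell by 1.52 in the low-FASN line (adjusted p = 0.000172). The platelet and macrophage chemokine Pf4 fell by 0.48 in the high-FASN line (limma adjusted p = 0.00166) and stood at -0.03 in the low-FASN line. The growth factor Igf1 rose by 0.34 in the high-FASN line (limma adjusted p = 0.0127) and 0.69 in the low-FASN line (adjusted p = 0.000189).

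Among 26 tested pan-myeloid genes, 7 fell and 3 rose in the high-FASN line, and 3 fell and 6 rose in the low-FASN line. Between the lines, 9 were called, all lower in the high-FASN line. Clec7a, the beta-glucan receptor dectin-1, read 235 and 247 in the high-FASN line, 427 and 429.9 in the low-FASN line, and 86.7 and 80.7 in B6 control hearts. It rose by 1.37 in the high-FASN line (limma adjusted p = 0.000192) and 2.16 in the low-FASN line (adjusted p = 8.89e-06), against the direction of Ms4a6d. Cybb, the catalytic subunit of the phagocyte NADPH oxidase, rose by 0.78 in the high-FASN line (limma adjusted p = 0.00144) and 0.92 in the low-FASN line (adjusted p = 0.00032). The macrophage lysozyme Lyz2 stood at -0.14 in the high-FASN line, where it was not called, and rose by 0.42 in the low-FASN line (limma adjusted p = 0.000655). The leukocyte phosphatase Ptprc, known as CD45, stood at 0.23 in the high-FASN line, where it was not called, and rose by 0.78 in the low-FASN line (limma adjusted p = 0.000609).

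**Figure D4:**
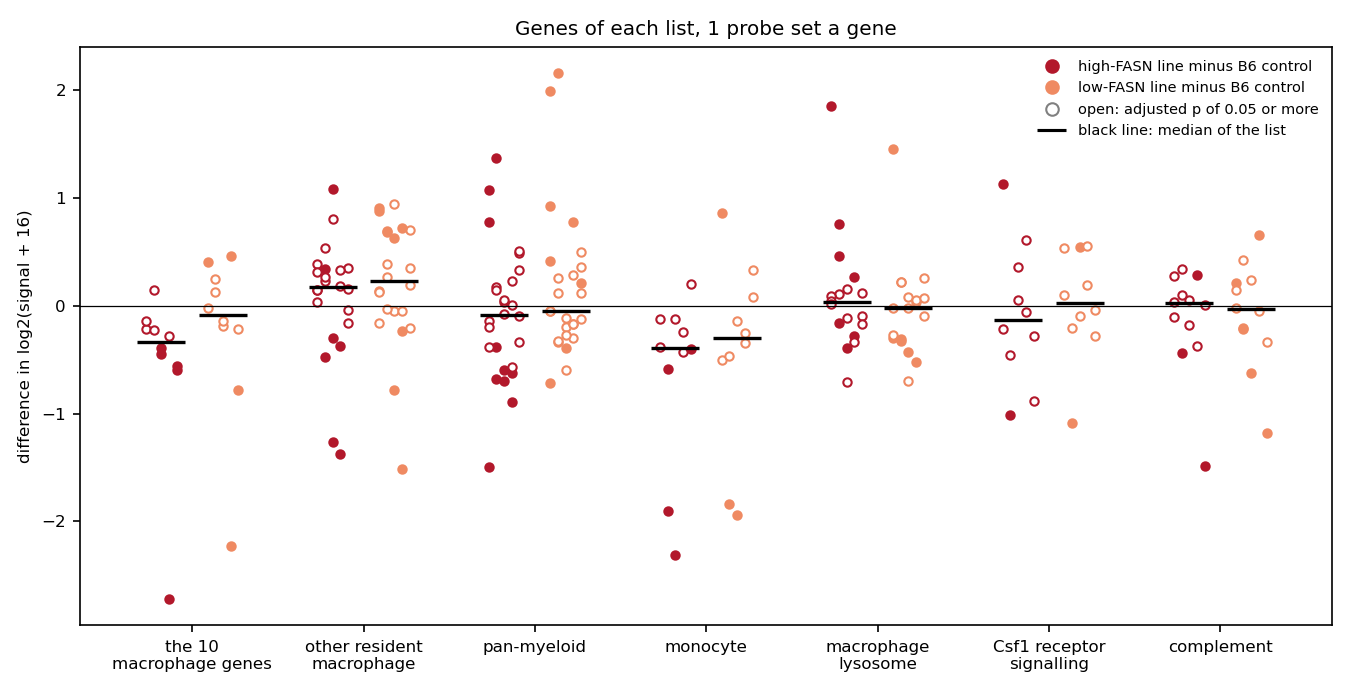
Difference of each line from B6 control in log2(signal + 16) for the genes of 7 lists, 1 probe set a gene, with filled points for genes called and a black line for the median of the list. The lowest point of the first list is Ms4a6d, and each of the other lists holds called genes in both directions or, for monocyte genes in the high-FASN line, in 1 direction.

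Of 10 tested monocyte genes, 4 fell in the high-FASN line, with a median of -0.40 over the list, and 2 fell and 1 rose in the low-FASN line, with a median of -0.30. Between the lines, 3 were called, all lower in the high-FASN line. The chemokine Ccl9 fell by 2.31 in the high-FASN line (limma adjusted p = 3.24e-07) and fell by 1.94 in the low-FASN line (adjusted p = 1.06e-06). The related chemokine Ccl6 read 649 and 608 in the high-FASN line, 653 and 659 in the low-FASN line, and 2253 and 2544 in B6 control hearts. It fell by 1.90 in the high-FASN line (limma adjusted p = 9.71e-07) and fell by 1.84 in the low-FASN line (adjusted p = 1.46e-06). Nr4a1, a nuclear receptor of patrolling monocytes, stood at -0.12 in the high-FASN line and rose by 0.86 in the low-FASN line (limma adjusted p = 0.00227). The difference between the lines, high-FASN minus low-FASN, was -0.98 for Nr4a1 (limma adjusted p = 0.00194). The proteoglycan Vcan fell by 0.40 in the high-FASN line (limma adjusted p = 0.0119) and stood at 0.08 in the low-FASN line.

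Of 10 tested genes listed under Csf1 receptor signalling, 1 rose and 1 fell in each line against B6 control. That list also holds transcription factors and receptor chains for Csf2. The only genes of it called in the high-FASN line were the transcription factors Cebpa and Cebpb. Between the lines limma called 0 of them, and 1 had an unadjusted p below 0.05. Cebpb, a transcription factor of myeloid and fat cells, read 1726 and 1299 in the high-FASN line, 1270.1 and 1599.6 in the low-FASN line, and 3038 and 3047 in B6 control hearts. It fell by 1.02 in the high-FASN line (limma adjusted p = 0.00126) and fell by 1.09 in the low-FASN line (adjusted p = 0.000483). Cebpa, which acts in the same cell types, rose by 1.13 in the high-FASN line (limma adjusted p = 0.00404) and stood at 0.53 in the low-FASN line. The ligand Csf1 stood at 0.36 in the high-FASN line (limma adjusted p = 0.0728) and rose by 0.55 in the low-FASN line (adjusted p = 0.00855). Runx1 was not called in either line.

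Of 12 tested complement genes outside C1q, 2 fell and 1 rose in the high-FASN line, beside 6.2% and 8.22% of all tested probe sets. In the low-FASN line 3 fell and 2 rose, beside 10.8% and 13.6%. Between the lines, 2 were lower and 2 higher in the high-FASN line. C5ar1, the receptor for the fragment C5a, read 57.1 and 45.3 in the high-FASN line, 77.2 and 57.5 in the low-FASN line, and 161 and 183 in B6 control hearts. It fell by 1.49 in the high-FASN line (limma adjusted p = 0.00231) and fell by 1.18 in the low-FASN line (adjusted p = 0.00438). Cd93, a receptor of endothelial and myeloid cells once described as a C1q receptor, rose by 0.28 in the high-FASN line (limma adjusted p = 0.00938) and 0.66 in the low-FASN line (adjusted p = 6.21e-05). Cd59a, which blocks the membrane attack complex, fell by 0.63 in the low-FASN line (limma adjusted p = 0.000195), and Calr, a chaperone that binds C1q, rose there by 0.21 (adjusted p = 0.0254).

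Lysosomal genes expressed in macrophages but also in other heart cells went 4 up and 3 down of 18 in the high-FASN line, and 1 up and 5 down in the low-FASN line. Between the lines, 7 were higher and 1 lower in the high-FASN line, with a median of 0.20. The 1 gene called up in the low-FASN line was also among the 4 called up in the high-FASN line. Its mean of 31.1 in B6 control hearts lay below the minimum, which it passed through the transgenic arrays. Ctsd, an aspartic protease, fell by 0.28 in the high-FASN line (limma adjusted p = 0.00458) and fell by 0.52 in the low-FASN line (adjusted p = 9.82e-05). Psap, the saposin precursor, stood at 0.15 in the high-FASN line and fell by 0.43 in the low-FASN line (limma adjusted p = 0.000442). The protease Ctsb stood at 0.11 in the high-FASN line and fell by 0.31 in the low-FASN line (limma adjusted p = 0.00472). The protease Ctsz rose by 0.76 in the high-FASN line (limma adjusted p = 0.0018).

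Markers of other cells moved with the groups as well. Summed signals of 5 adipocyte genes were 20653 to 21779 in the high-FASN line, 13265 to 13445 in the low-FASN line and 3465 to 3580.1 in B6 control hearts, with 4 of 5 higher in each line and 1 lower in the low-FASN line. Summed signals of 4 B cell genes were 539 to 563 in the high-FASN line, 2287 to 2338 in the low-FASN line and 133 to 209.8 in B6 control hearts, with 3 of 4 higher in each line. The 5 lung genes summed to 2050.1 to 2299 in the high-FASN line, 702 to 741 in the low-FASN line and 568 to 615 in B6 control hearts, with 2 and 1 higher in the high-FASN and low-FASN lines. The 2 were Scgb1a1 and Scgb3a2, named after their values were seen. Their means were 1147 and 513 in the high-FASN line and 4.33 and 13.3 in B6 control hearts. Sftpb, Sftpc and Car4 were not called against B6 control in either line on the probe sets used. A group mean below the minimum was found for 2 of the 5 adipocyte genes called against B6 control, for all 3 B cell genes called and for both lung genes called, which passed it through the other groups. Adipose tissue, lymphoid tissue and lung also hold macrophages, and the part of these markers in the results above was not tested.

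Of 6 neutrophil genes, 3 fell in each line and 1 rose in the high-FASN line, with sums of 394 to 412 in the high-FASN line, 298 to 314 in the low-FASN line and 634 to 714 in B6 control hearts. Of the 4 neutrophil genes called, 3 had a group mean below the minimum. Of 10 fibroblast genes, 6 rose in the high-FASN line and 7 in the low-FASN line, and of 10 endothelial genes 3 and 4 rose, with 1 lower in the low-FASN line. Over all tested probe sets 8.22% were higher in the high-FASN line and 13.6% in the low-FASN line, and 6.2% and 10.8% lower. Of 10 cardiomyocyte genes, 7 rose in the high-FASN line and 1 fell in the low-FASN line. The 5 dendritic cell genes summed to 4554 to 4957 in the high-FASN line, 4253 to 4363 in the low-FASN line and 4596 to 4757 in B6 control hearts. Both tested T cell genes, of which 1 had a control mean below the minimum, and 1 of 3 mast cell genes rose in the low-FASN line. The part of these cells in the results was not tested.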

How the data were processed

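Heart RNA was measured on 6 arrays, and the authors deposited 1 table of linear signal intensity per probe set. Per the submitters' processing notes the software was GCOS; no source used here gives its version or settings. The deposited scaling was kept. Of 45037 non-control probe sets, 34945 had 1 gene symbol in the platform annotation, 932 several and 9160 none. Probe sets with a mean of at least 49.01 were analysed as log2(signal + 16) with limma 3.58.1 in R 4.3.3. The fit had 3 group means, an intensity trend, 3 residual degrees of freedom and Benjamini-Hochberg adjustment over all 22519 probe sets. For gene lists the brightest tested probe set stood for a gene. The fit was tested on simulated data with 50 changes planted at each of 4 sizes in the high-FASN line. It called 28 at a log2 change of -1, 27 at 0.5, 37 at 1 and 49 at 2. Of 22319 unchanged probe sets it called 12. In that simulation changes of 1 or less were often missed. Far fewer probe sets were changed there than were called in the data, which makes the adjusted p stricter. Its share of misses therefore does not describe the real fit, which called differences smaller than 1. A difference not called is not shown to be absent. Distances, promoter motifs and alignments were computed in Python 3.11.15 with Biopython 1.88.

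The genes and lists were chosen with earlier results of these data known. Named in the text are all probe sets of the 10 genes, up to 4 genes of each macrophage-related list with the smallest p in any comparison, the other tested Ms4a genes, Fasn and the 5 probe sets most like Ms4a6d. Alternatives covered normalization, pseudocount, filter, trend, arrays used, replicate number as a block and leaving out each array. The labels number the arrays 1 and 2 in each group, and no label says that a number marks a shared litter, batch or day.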

Additional observations from a re-analysis of the deposited data

Results flagged for a closer look

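In 5 probe sets of the 10 macrophage genes, both high-FASN arrays lay below and both low-FASN arrays above the control arrays, which 3.56% of all tested probe sets did. High-FASN minus low-FASN was -0.47 for C1qa, -0.86 and -1.18 for the C1qb probe sets 1434366_x_at and 1437726_x_at, -0.74 for C1qc and -0.62 for Adgre1 on the log2 scale. These 5 are among the 8 probe sets that the fit called between the lines, a description only, since the genes were chosen with these comparisons known.

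Among the 48 other resident-macrophage and pan-myeloid genes, 3 had this pattern and 1 the reverse, which 4.86% of all tested probe sets had. They are named here after their values were seen. Lyz2 read 3978 and 3928 in the high-FASN line, 5746 and 5912 in the low-FASN line, and 4520.4 and 4203 in B6 control hearts, with high-FASN minus low-FASN at -0.56. The lysozyme Lyz1, a close copy of Lyz2 whose probe set may read both, stood at -0.30, and Lst1, a leukocyte transmembrane gene, at -0.85. Selenop, a selenium transport protein, had the reverse pattern at 0.23. The pattern that picked these 4 genes already separates the lines, so no p-value is given for their differences. Of the macrophage lysosome list 1 of 18 genes had the first pattern and 2 the reverse, of the monocyte list 1 of 10 had the first, and of the complement list 1 of 12 had the first and 1 the reverse. Of 10 cardiomyocyte genes, 7 had the reverse.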

How the results depend on the processing

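Over 16 alternatives, the 45 differences of the macrophage genes changed sign in 7 of 720 values, all for Cd68 or Csf1r and none for a called difference. Ms4a6d stayed between -2.86 and -2.33 in the high-FASN line and between -2.53 and -1.98 in the low-FASN line over both probe sets. Without the intensity trend, the whole table had 1228, 3595 and 1444 calls (high-FASN against B6 control, low-FASN against B6 control, high-FASN against low-FASN), in place of 3246, 5494 and 4165. The 15 macrophage probe sets then had 4 calls in place of 7 in the low-FASN line and 5 in place of 8 between lines, and the other macrophage and myeloid genes 10 in place of 17 in the high-FASN line and 6 in place of 13 between lines. With only the 4 arrays compared, 5 macrophage probe sets were called between lines. The causes were not tested.

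Leaving out 1 array gave 1370 to 3505 calls over the whole table for the high-FASN line against B6 control, 2925 to 6492 for the low-FASN line against B6 control and 1556 to 4154 between the lines. For those comparisons it gave 6 to 9, 3 to 9 and 5 to 7 macrophage probe sets, and 10 to 16, 10 to 23 and 6 to 15 of the other macrophage and myeloid genes. A group left with 1 array was assumed to vary like the others. The _s_at probe set of Csf1r lost its call in the high-FASN line under 10 settings.

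Under median centring the share of higher calls over the whole table was 37.3% in place of 57% in the high-FASN line and 39.1% in place of 55.6% in the low-FASN line. For the macrophage probe sets it was 0% in place of 11.1% and 44.4% in place of 57.1%, and for the other macrophage and myeloid genes in the low-FASN line 52.6% in place of 64.7%. With the replicate block, calls over the whole table numbered 3376, 5646 and 4297, those of the macrophage probe sets 9, 8 and 8, and those of the other genes 17, 18 and 17. Deviations of same-numbered arrays correlated at 0.036, 0.024 and 0.002. A shared batch of small effect, or one that coincides with a group, would not show in these values. Whether same-numbered arrays share more than a number is therefore not known. No detection calls were used, so signal over background rests on the intensity alone.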
